A study of Homo sapiens with 84 samples.

Results

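Inflammatory chemokines and cytokines carry messages from epithelial tumor cells to the cells around them. The 10 genes described here encode neutrophil-attracting chemokines (CXCL1, CXCL2, CXCL3, and CXCL8), a chemokine for lymphocytes and dendritic cells (CCL20), interleukin-1 (IL1A and IL1B), cytokines of the IL-6 family (IL6 and LIF), and the myeloid growth factor GM-CSF (CSF2). They were chosen by name as a family, with earlier results of these data known, and each was found by its Ensembl identifier among the 58395 genes of the count files. Expression was measured by 3′ RNA-seq (QuantSeq) in Kyse30 cells, an established squamous carcinoma line of esophageal origin, and in FaDu cells, an established squamous carcinoma line of hypopharyngeal origin, so that each tumor type is represented by a single line. All cells had been kept without serum and then received EGF at 1.8 nM (EGFlow) or 9 nM (EGFhigh), the Fc-coupled ectodomain of EpCAM (EpEX), EGFhigh together with EpEX, Fc alone, or nothing, for 6 or 72 h, beside untreated cells at 0 h. Untreated cells were the control for EGF. Fc was the control for EpEX and for EGFhigh + EpEX, so that both arms of those comparisons held the carrier. In such bulk samples, fewer expressing cells and less RNA per cell cannot be told apart.

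Several of these genes share a mode of control. In epithelial cells, EGFR signaling through MAPK activates AP-1, and the NF-κB pathway, which can be engaged downstream of growth factor, cytokine, and Toll-like receptors, drives many of their promoters. Their mRNAs are short-lived because AU-rich stretches at the 3′ end recruit decay factors such as TTP (ZFP36), so that they typically rise and fall quickly. IL-1α and IL-1β bind the receptor IL1R1 with its partner IL1RAP, IL-1RA (IL1RN) blocks that receptor, and CXCL chemokines bind CXCR1 and CXCR2, which are found mainly on neutrophils.

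All 43 Kyse30 libraries and the 20 FaDu libraries labelled replicate 3 or 4 were described. A Kyse30 library held between 1944948 and 11759799 counts on genes, with a median of 6304338, and a FaDu library between 6217938 and 12442349, with a median of 9259762. A count of 3 corresponded to 0.255 to 1.54 CPM (a gene's count relative to the total count of its library, scaled for composition) in Kyse30 and to 0.241 to 0.482 CPM in FaDu, and such limits cover counting error only. FaDu replicates 1 and 2 stood apart from replicates 3 and 4: the median Spearman correlation over 19281 genes was 0.835 between the sets and 0.956 within replicates 3 and 4. It was 0.846 within replicates 1 and 2. Between Kyse30 and FaDu replicates 3 and 4, which are different lines, it was 0.865 (0.826 to 0.888), beside 0.798 to 0.867 between the FaDu sets. The cause was not tested. All 7 squamous epithelial markers exceeded 1 CPM on average in both lines, with a summed level of 1780 to 5030 CPM in Kyse30 and 1420 to 5490 CPM in FaDu. None of the 6 leukocyte markers did, and their summed level was 0 to 3.84 CPM in Kyse30 and 0 to 1.27 CPM in FaDu. Of the 5 fibroblast markers, COL1A1 and COL1A2 in Kyse30 and COL1A1 and COL3A1 in FaDu passed 1 CPM, with summed levels of 10.1 to 44.5 CPM and 7.14 to 15.7 CPM, and of the 3 endothelial markers CDH5 alone did, with summed levels of 0 to 7.41 CPM in Kyse30 and 0.405 to 9.59 CPM in FaDu. The FaDu libraries labelled EpEX at 6 h stood with the EGF libraries in the NF-κB target gene TNFAIP3, which had 36.8 and 33.7 CPM there and 35.2 and 41.4 CPM after EGFhigh, while the single library labelled EGFhigh + EpEX at 6 h had 3.14 CPM, near Fc (1.66 and 0.723 CPM). Whether the labels of these libraries hold was not tested. They were used as given, and each EpEX value at 6 h in FaDu rests on these libraries.

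The 4 CXCL genes lie together on chromosome 4 and the IL1 genes together on chromosome 2 (GRCh38). The CXCL8 gene spans chr4:73740506-73743716 on the plus strand, CXCL1 chr4:73869393-73871242 on the plus strand, CXCL3 chr4:74036589-74038807 on the minus strand, and CXCL2 chr4:74097035-74099293 on the minus strand. IL1A spans chr2:112773915-112784590 and IL1B chr2:112829751-112836903, both on the minus strand, and CCL20 spans chr2:227805739-227817564 on the plus strand. LIF lies at chr22:30240447-30246851 on the minus strand, IL6 at chr7:22725884-22732002 on the plus strand, and CSF2 at chr5:132073790-132076170 on the plus strand. All are protein-coding genes.

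RefSeq promoter windows (GRCh38.p14, 300 bases around the start of the gene) were matched by symbol for 9 of the 10 members. The NF-κB consensus, searched on both strands, occurred in the windows of 5 of these 9 genes and in 5.91% of all 35116 windows. The stretches from base -100 to -51 before the start are shown for the 4 chemokine genes that hold it, with the match in capitals, because the 3 CXCL genes carry it at nearly the same place in nearly the same surroundings.
CXCL1: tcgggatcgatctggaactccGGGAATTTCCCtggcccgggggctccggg
CXCL2: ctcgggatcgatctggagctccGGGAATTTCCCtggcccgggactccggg
CXCL3: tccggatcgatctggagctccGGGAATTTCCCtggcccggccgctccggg
CCL20: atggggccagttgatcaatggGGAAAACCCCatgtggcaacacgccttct

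The stretches lie at chr4:73869293-73869342 (plus strand) for CXCL1, chr4:74099246-74099295 (minus strand) for CXCL2, chr4:74038740-74038789 (minus strand) for CXCL3, and chr2:227813742-227813791 (plus strand) for CCL20. In the CXCL genes the 11 capital bases hold 2 overlapping matches, 1 on each strand. The window of IL6 held the fifth match. Sites that depart from this consensus were not searched for. A window without a match, such as that of CXCL8, can therefore still hold such a site. The AP-1 motif TGANTCA, which reads the same on either strand, occurred in the windows of 2 members, CXCL8 and IL1A, and in 7.71% of all windows. Their stretches from base -160 to -1 are shown with this motif in capitals, because CXCL8 had separate control and treated values in FaDu and IL1A was called there after EpEX.
CXCL8: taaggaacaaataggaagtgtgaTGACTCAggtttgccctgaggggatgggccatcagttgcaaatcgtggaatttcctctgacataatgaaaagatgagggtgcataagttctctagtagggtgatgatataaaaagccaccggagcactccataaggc
IL1A: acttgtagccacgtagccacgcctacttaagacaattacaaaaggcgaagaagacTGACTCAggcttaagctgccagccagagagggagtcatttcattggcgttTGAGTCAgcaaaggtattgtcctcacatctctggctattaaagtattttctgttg

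They lie at chr4:73740409-73740568 (plus strand) and chr2:112784401-112784560 (minus strand). CXCL8 held 1 match, at base -137, and IL1A held 2, at bases -105 and -55 of the first of its 2 listed starts. The letters TATAAA were found in the windows of 3 members, CXCL8, CCL20, and IL1A, and in 11.5% of all windows. These matches describe the letters of the windows only. At the other end of the transcripts, the AU-rich nonamer ATTTATTTA stood in the longest annotated part after the coding sequence of 5 of the 10 members (CXCL1, CXCL2, CXCL8, IL1B, and CSF2) and of 7.23% of 18297 genes, and the median member had 8.48 ATTTA pentamers per kb. The last 500 bases of CXCL1 and CXCL2 were alike in part. Of the 426 possible 75-base words they shared 3, and of the 471 possible 30-base words they shared 86. CXCL3 shared none of either length with them. Reads that align equally well to both genes count as not uniquely aligned, and such reads were left out.

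Levels differed between Kyse30 and FaDu replicates 3 and 4. In FaDu, the median over the 20 libraries was 13.1 CPM for IL1B (lowest 3.57, highest 74.8), 9.89 CPM for CXCL8 (2.997 to 33.95), 5.22 CPM for IL1A (0.382 to 45.4), 4.56 CPM for LIF (1.07 to 41.0), and 3.91 CPM for CXCL1 (0 to 10.7). The ranges of neighbors in this order overlapped. Below them came CXCL2 with a median of 0.334 CPM (0 to 2.89), CXCL3 with 0.198 CPM (0 to 2.04), and CCL20 with a median of 0 (highest 3.004). In 3′ RNA-seq a transcript is counted once at its end, so that these levels between genes need no correction for length.

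In Kyse30, IL1A had the highest median of the 10 members, at 4.75 CPM over 43 libraries (0.234 to 45.2). LIF had a median of 1.02 CPM (0 to 14.8), CXCL3 of 0.830 CPM (0 to 9.89), IL1B of 0.430 CPM (0 to 2.93), and CXCL8 of 0.420 CPM (0 to 7.74). The ranges of these 4 overlapped with each other and with that of IL1A.

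**Figure D1:**
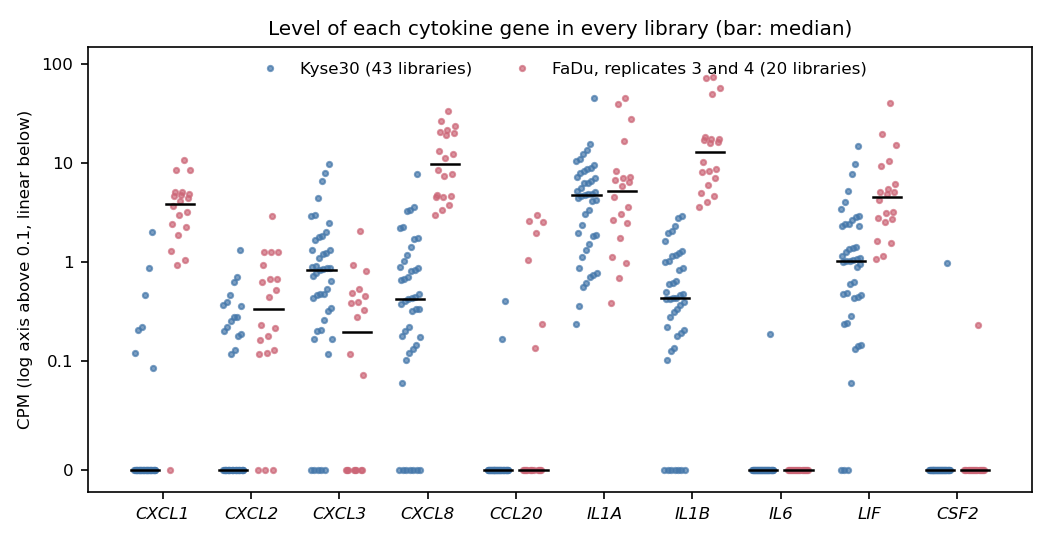
Level of each of the 10 genes in CPM (vertical axis, logarithmic above 0.1) in the 43 Kyse30 libraries and the 20 FaDu libraries of replicates 3 and 4; points are libraries and bars medians. IL1B, CXCL8, and CXCL1 sit higher in FaDu, IL1A covers a like range in both lines, and IL6 and CSF2 lie at 0 in nearly every library.

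A member was too low to judge where it did not pass the count filter, which asks for about 10 counts in as many libraries as the smallest group holds. In Kyse30 this held for 5 members, CXCL1 with 25 counts in all 43 libraries together, CXCL2 with 40, CCL20 with 3, IL6 with 2, and CSF2 with 5. CXCL1 had 11 of its 25 counts in 1 untreated library at 72 h, and the 5 counts of CSF2 came from 1 EGFhigh library at 6 h. In FaDu it held for IL6, with 0 counts in all 20 libraries, which allows a pooled level of up to 0.0160 CPM, and CSF2, with 2 counts in 1 Fc library at 72 h. CXCL3 passed the filter in FaDu with 65 counts in 12 of 20 libraries, of which 17 stood in 1 untreated library at 6 h, and no change is read from it. The smallest group held 3 libraries in Kyse30 and 1 in FaDu and in the fit over both lines. The filter thus asked for less outside Kyse30, and the low members of each line were set by unlike limits.

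Untreated cells at 6 h show the difference between the lines without treatment. CXCL1 had 0, 1, and 0 counts in the 3 Kyse30 libraries (replicates 1, 3, and 4; 0, 0.120, and 0 CPM) and 25 and 20 counts in the 2 FaDu libraries (2.97 and 2.40 CPM). IL1B had 1.03, 0, and 0.422 CPM in Kyse30 and 4.63 and 17.1 CPM in FaDu. For both genes, and also for CXCL8, every FaDu library was above every Kyse30 library. The share of all genes with this order was not counted, and no support is read from it.

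In 1 fit over both lines (edgeR quasi-likelihood test, 19634 genes, a call being an adjusted p up to 0.05 with a log2 fold change beyond 0.5 in size), 2 of the 8 members tested were called, both higher in FaDu, and DESeq2 called the same number. Of all genes tested, 22.4% were called in either direction. IL1B was higher by a log2 fold change of 4.56 (SE 1.03, edgeR adjusted p = 0.000596). CXCL1 was higher by 5.44 (SE 1.60, edgeR adjusted p = 0.0114), a value that rests on 1 count in Kyse30. CXCL1 was too low to judge in Kyse30 alone and entered this fit through FaDu, where it was high, so that its call is given as a description. The ratio of summed counts for CXCL1 was 57.2 with a counting interval of 9.75 to 2308, and without Kyse30 replicate 4 the fitted value was 4.96 with an edgeR adjusted p of 0.0559. CXCL8 had 1.03, 0.120, and 1.69 CPM in Kyse30 and 8.55 and 4.56 CPM in FaDu (log2 fold change 2.80, SE 1.14, edgeR adjusted p = 0.0703). IL1A, LIF, CXCL2, CXCL3, and CCL20 had adjusted p values of 0.336 or more. Cell line and any difference in how each line's libraries were made cannot be told apart.

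The clearest treatment values came from FaDu cells at 6 h, where 2 libraries stood for each condition. CXCL8, which encodes interleukin-8, had 8.55 and 4.56 CPM in untreated cells (replicates 3 and 4), 23.7 and 19.99 CPM after EGFlow, and 26.8 and 33.95 CPM after EGFhigh. With Fc it had 12.2 and 2.997 CPM, and with EpEX 19.3 and 21.7 CPM. Each treated pair lay above its control pair, and the pairs after EGFlow and EpEX overlapped with each other. The fitted log2 fold change was 1.74 (SE 0.60) for EGFlow, 2.22 (SE 0.61) for EGFhigh, and 1.47 (SE 0.60) for EpEX. With single libraries left out, the CXCL8 value for EpEX was 0.79 without Fc replicate 4 and 2.79 without Fc replicate 3.

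IL1B, the secreted form of interleukin-1, had 4.63 and 17.1 CPM in untreated cells, 16.5 and 58.1 CPM after EGFlow, and 18.3 and 72.6 CPM after EGFhigh. With Fc it had 3.57 and 15.9 CPM, and with EpEX 17.4 and 50.3 CPM. Replicate 4 was above replicate 3 in all 5 conditions at 6 h that had both libraries, by 2.89 to 4.46 times, so that the lower EGFlow library lay just under the higher untreated library while within either number the treated library was the higher one. The fitted log2 fold change was 1.78 (SE 0.75) for EGFlow, 2.07 (SE 0.76) for EGFhigh, and 1.81 (SE 0.76) for EpEX. These IL1B values depended on single libraries. They were 0.62, 0.77, and 0.83 without the treated library of replicate 4, and 3.02, 3.31, and 3.29 without the control library of replicate 4.

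IL1A, the form of interleukin-1 that also acts from inside and at the surface of the cell, had 3.56 and 6.48 CPM in untreated cells, 8.41 and 27.9 CPM after EGFlow, and 7.004 and 16.9 CPM after EGFhigh. With Fc it had 0.382 and 4.55 CPM, and with EpEX 7.28 and 45.4 CPM. Each treated library was above both of its controls, and replicate 4 was again above replicate 3 in all 5 conditions, by 1.82 to 6.23 times where replicate 3 held more than 3 counts. The fitted log2 fold change was 1.85 (SE 0.82) for EGFlow, 1.26 (SE 0.81) for EGFhigh, and 3.40 (SE 0.87) for EpEX. Without the treated library of replicate 4, the IL1A values were 0.75, 0.49, and 1.53, and without the Fc library of replicate 4 the EpEX value was 6.11.

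LIF, a cytokine that signals through gp130 as IL-6 does, had 2.73 and 1.56 CPM in untreated cells, 5.13 and 19.7 CPM after EGFlow, and 3.17 and 41.0 CPM after EGFhigh. With Fc it had 10.6 and 4.24 CPM, and with EpEX 2.56 and 15.3 CPM. After EGFhigh the replicate 3 library was close to the untreated libraries and the replicate 4 library far above them, and after EpEX the groups overlapped. The fitted log2 fold change was 2.53 (SE 0.96) for EGFlow, 3.36 (SE 0.97) for EGFhigh, and 0.32 (SE 0.87) for EpEX. Without the treated library of replicate 4, the LIF values were 1.26, 0.57, and -1.50.

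**Figure D2:**
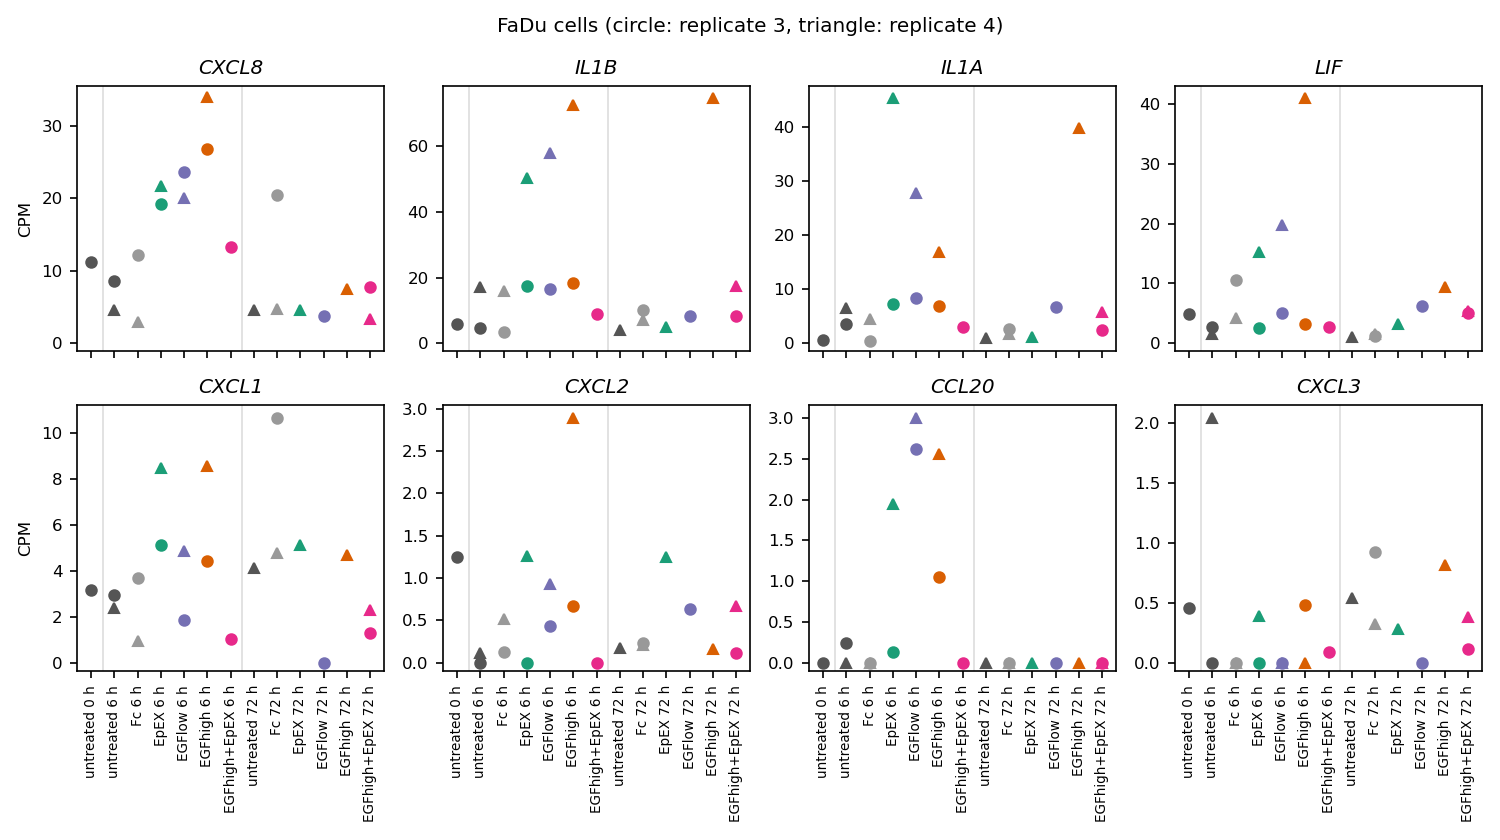
CPM (vertical axis, from 0, own scale for each gene) of 8 genes in the 20 FaDu libraries of replicates 3 (circles) and 4 (triangles) by condition. At 6 h the libraries with EGFlow, EGFhigh, or EpEX lie above untreated and Fc libraries for CXCL8, the triangles of IL1B and IL1A lie above the circles, and the single EGFhigh library at 72 h is as high as those at 6 h for IL1B.

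The remaining chemokines were lower. CXCL1 had 2.97 and 2.40 CPM in untreated cells, 1.86 and 4.87 CPM after EGFlow, and 4.41 and 8.57 CPM after EGFhigh, and with Fc 3.70 and 0.930 CPM against 5.12 and 8.47 CPM with EpEX. CCL20 had 2 counts in the untreated pair against 53 after EGFlow (29 in the higher library) and 34 after EGFhigh, ratios of 23.6 (counting interval 6.22 to 200) and 14.7 (3.76 to 126). With Fc it had 0 counts in both libraries and with EpEX 1 and 20 counts, at least 6.93-fold higher against a floor of 3 counts over the Fc pair. CXCL2 had 1 count in the untreated pair, 13 after EGFlow, and 33 after EGFhigh, ratios of 11.6 (1.74 to 492) and 28.5 (4.77 to 1159). With Fc and EpEX it had 6 and 13 counts. CCL20 and CXCL2 thus stood near the floor in the controls, and these intervals cover counting error only.

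In the order of libraries, 7 of the 10 members had both EGFhigh libraries above both untreated libraries in FaDu at 6 h, 5 did so for EGFlow, and 5 for EpEX against Fc. Over all 16022 genes tested this order was found in 19.7%, 20.4%, and 18.7%. Each count includes CCL20, which passed the filter through its treated libraries, and the counts are a description from which no support is read. By the test across all genes, the outcome was narrower. For EGFhigh 0 of the 8 members tested were called by edgeR, where 3.06% of all genes were, and DESeq2 called 2, CXCL8 and LIF. An unadjusted p under 0.05 was found for 5 members, among them CXCL2 and CCL20, which held 1 and 2 counts in the untreated pair. CCL20 is also among the 6 counted for EGFlow. The share of all genes with such a p was not counted, and no support is read from these counts. CXCL8 had an edgeR adjusted p of 0.0560 and LIF of 0.0750. Without replicate 3 of EGFhigh, edgeR called LIF (log2 fold change 4.24, adjusted p = 0.00723, with the lone library assumed to vary as the others do), whereas without replicate 4 of EGFhigh the LIF value was 0.57 (edgeR adjusted p = 0.876). For EGFlow 0 members were called by edgeR, where 3.45% of all genes were, 6 had an unadjusted p under 0.05 (5 higher and 1 lower, the lower one being CXCL3, from which no change is read), and DESeq2 called 0 of the 5 to which it gave an adjusted p.

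For the libraries labelled EpEX, 1 member, IL1A, was called by edgeR as higher (adjusted p = 0.0364), where 3.50% of all genes were called. 5 members, CCL20 among them, had an unadjusted p under 0.05, from which no support is read, and DESeq2 called 1. The call was lost without the Fc library of replicate 3 (log2 fold change 2.56, edgeR adjusted p = 0.257) and without the EpEX library of replicate 4 (1.53, edgeR adjusted p = 0.527). When all FaDu libraries, replicates 1 and 2 included, entered the fit, the IL1A value was -0.38. The effects of EGFlow, EGFhigh, and Fc were measured against the same untreated pair.

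Neither the EGF dose nor the carrier gave a call. Between EGFhigh and EGFlow in FaDu at 6 h, edgeR and DESeq2 called 0 members and 0 genes of any kind (0% by edgeR; the FaDu shares are of 16022 genes), and 0 members had an unadjusted p under 0.05. For CXCL8 the log2 difference was 0.48 (SE 0.56), for IL1B 0.29 (SE 0.71), for LIF 0.835 (SE 0.84), and for IL1A -0.59 (SE 0.77). Between Fc and untreated cells edgeR and DESeq2 also called 0 members and 0 genes (0% by edgeR), and 1 member, CXCL3, had an unadjusted p under 0.05.

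Single FaDu libraries of replicates 3 and 4 gave values with no test. The library with EGFhigh + EpEX at 6 h (replicate 3) had 13.3 CPM of CXCL8, 8.81 of IL1B, 3.05 of IL1A, and 2.79 of LIF, and 0 counts of CCL20 and CXCL2. The EGFhigh library with the same number had 26.8, 18.3, 7.004, and 3.17 CPM. At 72 h the EGFhigh library (replicate 4) had 74.8 CPM of IL1B (exact binomial interval 70.1 to 79.8, counting error only) and 39.8 CPM of IL1A (36.4 to 43.5), against 4.02 CPM (2.94 to 5.38) and 0.984 CPM (0.491 to 1.76) in the untreated library. CXCL8 had 7.46 CPM there and 4.65 CPM in the untreated library, and CCL20 was at 0 in all 8 FaDu libraries at 72 h.

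EGFhigh + EpEX at 72 h could be tested against Fc in FaDu, with 2 libraries in each arm. edgeR and DESeq2 called 0 members, edgeR called 0.818% of all genes, and 1 member had an unadjusted p under 0.05. This was CXCL1, with 10.7 and 4.75 CPM with Fc and 1.29 and 2.28 CPM with EGFhigh + EpEX, which did not overlap (log2 fold change -2.10, SE 0.68, edgeR adjusted p = 0.294). LIF did not overlap either and was higher with EGFhigh + EpEX. It had 1.16 and 1.62 CPM with Fc and 5.16 and 5.42 CPM with EGFhigh + EpEX (log2 fold change 1.90, SE 1.00, edgeR adjusted p = 0.822). The share of all genes with such an order was not counted here. CXCL8 had 20.5 and 4.75 CPM with Fc and 7.74 and 3.33 CPM with EGFhigh + EpEX, which overlapped.

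In Kyse30 cells no member was called in any of 17 comparisons. With 5 members tested in each, these made 85 tests, of which 0 had an adjusted p under 0.05 by edgeR and 1 had an unadjusted p under 0.05. DESeq2 called 0 and gave no adjusted p in 17 of the 85 tests. Of the members tested, CXCL3, CXCL8, IL1B, and LIF averaged 1.45, 0.926, 0.699, and 1.92 CPM. At such levels large changes could be missed: for LIF after EGFhigh at 6 h the log2 fold change was 2.44 with an SE of 1.29. The absence of calls thus does not show that these members did not respond. The share of all 15350 genes that edgeR called was 1.50% for EGFlow, 2.55% for EGFhigh, 0.0261% for EpEX, and 4.52% for EGFhigh + EpEX at 6 h, and 6.20% for EGFhigh at 72 h. It was 3.73% for EGFhigh against EGFlow and 3.58% for EGFhigh + EpEX against EGFhigh at 72 h, 1.55% for untreated cells at 72 h against 6 h, 1.01% for the change in the EGFhigh response between these times, and 0% for the other 8 comparisons.

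IL1A in Kyse30 showed the largest levels. It had 0.558, 0.611, and 1.14 CPM in the 3 untreated libraries at 0 h, 6.53, 0.359, and 4.92 CPM at 6 h, and 5.599, 7.91, and 3.37 CPM at 72 h. Untreated cells at 6 h against 0 h gave the single unadjusted p under 0.05 (log2 fold change 2.34, SE 1.04, edgeR adjusted p = 1), and the groups overlapped. After EGFhigh it had 2.35, 1.95, 4.67, and 13.7 CPM at 6 h and 6.35, 9.03, and 45.2 CPM at 72 h. The 72 h value of 45.2 CPM stood in 1 library (replicate 4), and the groups overlapped (log2 fold change 1.81, SE 0.90, edgeR adjusted p = 0.260). With EGFhigh + EpEX at 72 h it had 7.27, 6.23, and 4.22 CPM, a log2 difference from EGFhigh alone of -1.75 (SE 0.90, edgeR adjusted p = 0.334).

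IL1B in Kyse30 had 0, 0.368, and 0.991 CPM in untreated cells at 72 h and 2.93, 0.869, and 1.98 CPM after EGFhigh (log2 fold change 2.06, SE 1.48, edgeR adjusted p = 0.478). LIF had 2.41, 0.239, and 0.141 CPM in untreated cells at 6 h and 14.8, 2.31, 2.92, and 0.475 CPM after EGFhigh (log2 fold change 2.44, edgeR adjusted p = 0.370). The groups overlapped for both genes. CXCL8 had 1.03, 0.120, and 1.69 CPM untreated and 0.336, 0.177, 3.30, and 0.475 CPM after EGFhigh at 6 h, with no order between the groups. In 3 of the 80 pairs of a member and a comparison in Kyse30 the groups did not overlap. Over all 15350 genes tested, the share with such an order in 1 direction ran from 0.808% to 11.5% between the comparisons. Nothing about the members is read from the count of 3 pairs. LIF had 2.30, 0.436, and 0.146 CPM with Fc and 9.78, 2.66, and 3.46 CPM with EpEX at 6 h, all EpEX libraries being higher (log2 fold change 2.45, SE 1.33, edgeR adjusted p = 0.562), an order found in 6.46% of all genes. CXCL3 had 0.344, 0.478, and 0.844 CPM untreated, 0.256, 0.117, 0.168, and 0.168 CPM after EGFlow, and 1.68, 0.888, 0.777, and 0.475 CPM after EGFhigh at 6 h. All EGFlow libraries of CXCL3 lay below the untreated ones (log2 fold change -1.57, edgeR adjusted p = 0.644, an order found in 6.68% of all genes) and below the EGFhigh ones (EGFhigh against EGFlow 2.26, edgeR adjusted p = 1, an order found in 1.02%), at 1 or 2 counts each. At 72 h CXCL3 had 1.78, 7.92, and 0.319 CPM with Fc and 1.21, 6.62, and 9.89 CPM with EpEX, which overlapped widely.

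**Figure D3:**
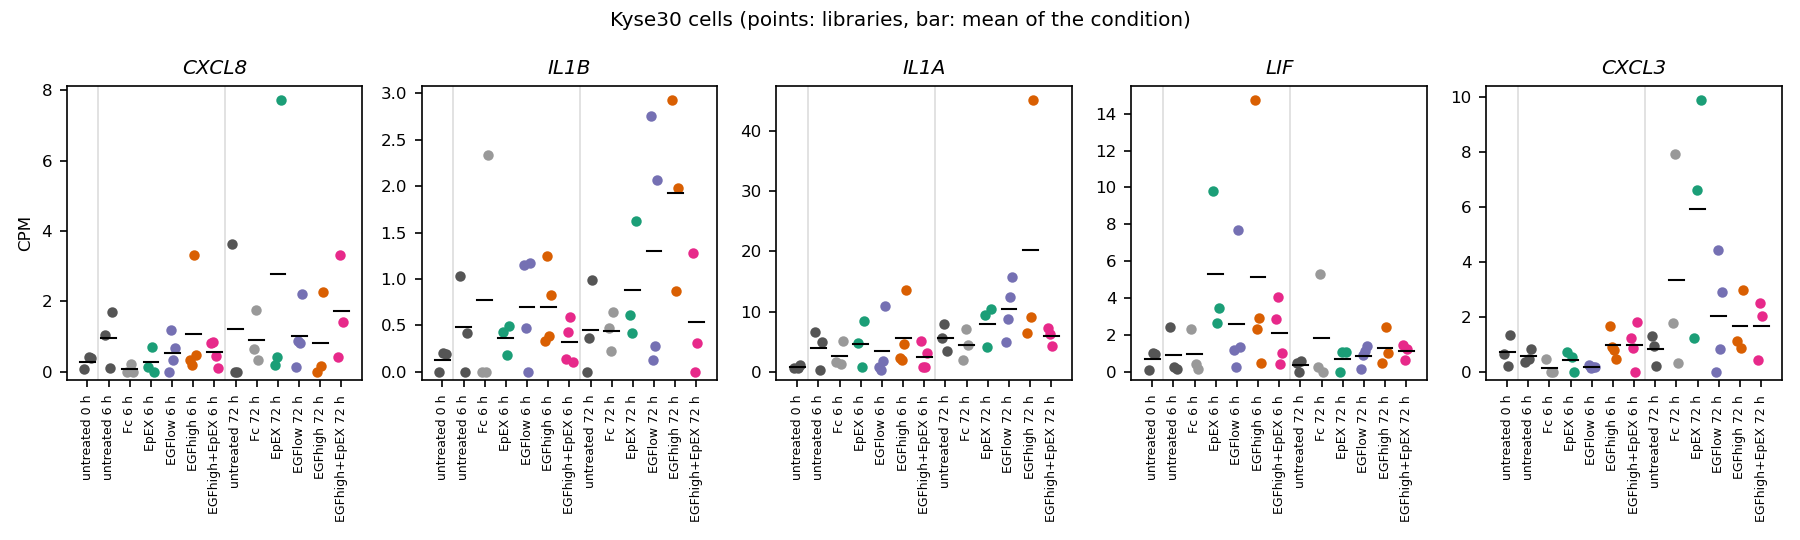
CPM (vertical axis, from 0, own scale for each gene) of the 5 members tested in Kyse30 by condition; points are libraries and bars the mean of 3 or 4 libraries. Single libraries lie far above the others of their condition, such as IL1A at 45.2 CPM after EGFhigh at 72 h and LIF at 14.8 CPM after EGFhigh at 6 h.

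Whether the response to EGFhigh at 6 h differed between the lines was tested as an interaction. edgeR called 0 members, 0 had an unadjusted p under 0.05, and 0.0611% of all genes were called. DESeq2 gave no adjusted p for the 8 members. The log2 response in FaDu minus that in Kyse30 was 1.99 (SE 1.60) for CXCL8, 1.35 (SE 1.49) for IL1B, 0.91 (SE 1.72) for LIF, and 0.65 (SE 1.34) for IL1A.

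**Figure D4:**
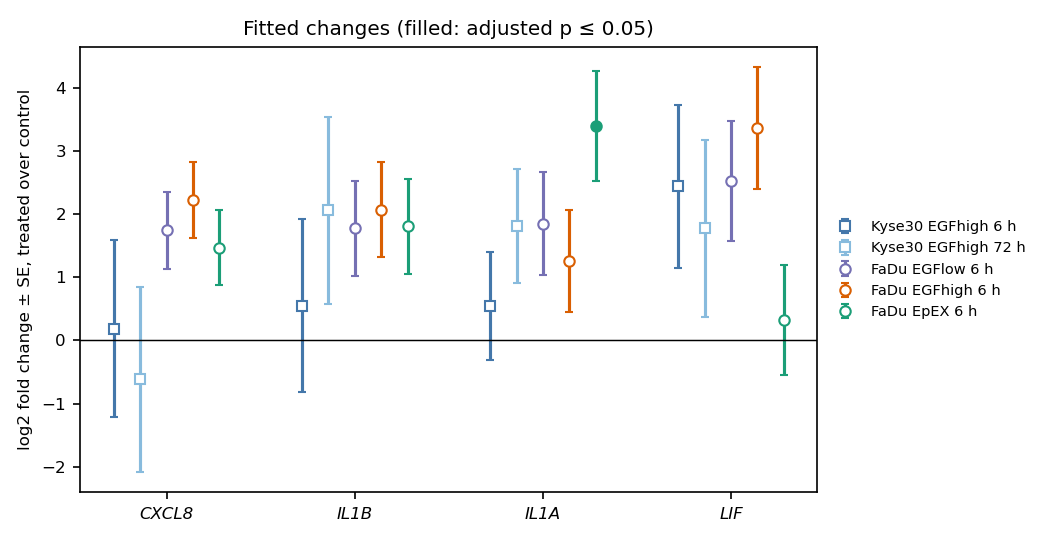
Log2 fold change against the control of each treatment (vertical axis, ± SE from the edgeR fit of each line) for 4 members in 5 comparisons; filled symbols mark calls. IL1A after EpEX in FaDu (3.40) is the filled one, and the bars of Kyse30 are wider than those of FaDu for CXCL8, IL1B, and LIF.

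Around these genes, part of a list of NF-κB pathway members moved in both lines. The list was drawn up with earlier results of these data known, so that its counts are a description. It held 16 subunits, inhibitors, and target genes of the pathway, all tested. In FaDu at 6 h edgeR called 7 as higher after EGFlow, 7 after EGFhigh, and 7 after EpEX, with 0 lower, where 3.45%, 3.06%, and 3.50% of all genes were called, and the median log2 fold change of the list was 1.07, 1.03, and 0.845, beside -0.02, -0.01, and -0.01 over all genes tested. TNFAIP3, which encodes the feedback inhibitor A20, had 1.19 and 1.92 CPM in untreated cells, 34.2 and 66.3 CPM after EGFlow, and 35.2 and 41.4 CPM after EGFhigh, and 1.66 and 0.723 CPM with Fc against 36.8 and 33.7 CPM with EpEX. Every treated library was above every control library, and the fitted log2 fold change after EGFhigh was 4.62 (SE 0.73, edgeR adjusted p = 0.00108). In the single library with EGFhigh + EpEX at 6 h TNFAIP3 had 3.14 CPM and the NF-κB subunit RELB 8.55 CPM, nearer to Fc (RELB 8.41 and 6.61 CPM) than to EGFhigh (RELB 36.7 and 29.7 CPM).

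When replicates 1 and 2 also entered the FaDu fit, edgeR called 0 genes of any kind for EGFlow, EGFhigh, or EpEX at 6 h.

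After EGFhigh, RELB rose by a log2 fold change of 3.04, the precursor subunit gene NFKB2 by 1.78, and the early response gene IER3 by 1.44 in FaDu at 6 h. In Kyse30 at 6 h, 3 of the 16 rose after EGFhigh, TNFAIP3 by 2.18, the apoptosis inhibitor BIRC3 by 1.999, and RELB by 1.73, and 0 fell, where 2.55% of all genes were called. RELB had 8.76, 18.1, and 15.6 CPM in untreated Kyse30 cells and 41.0, 53.6, 43.2, and 53.2 CPM after EGFhigh, with no overlap. At 72 h RELB, NFKB2, and IER3 were higher (log2 fold change 1.16, 1.56, and 1.92), and NFKBIZ, which encodes an atypical nuclear IκB, was lower (-1.84), where 6.20% of all genes were called. The median of the list was 0.50 at 6 h and 0.65 at 72 h in Kyse30, beside -0.05 and -0.03 over all genes. With EGFhigh + EpEX against Fc at 6 h in Kyse30, edgeR called 3 of the 16 as higher and 0 as lower (median 0.48), where 4.52% of all genes were called, and the median difference from EGFhigh alone was 0.01. RELB had 9.05, 13.1, and 12.5 CPM with Fc, 28.2, 40.9, and 18.3 CPM with EpEX, and 98.2, 44.5, 50.1, and 37.3 CPM with EGFhigh + EpEX, so that in Kyse30 the libraries with both ligands did not lie near Fc. For EpEX alone edgeR called 0 of the 16 (median 0.13), where 0.0261% of all genes were called, 2 had an unadjusted p under 0.05 (RELB and TNFAIP3), and DESeq2 called RELB (log2 fold change 1.34, adjusted p = 0.0265).

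**Figure D5:**
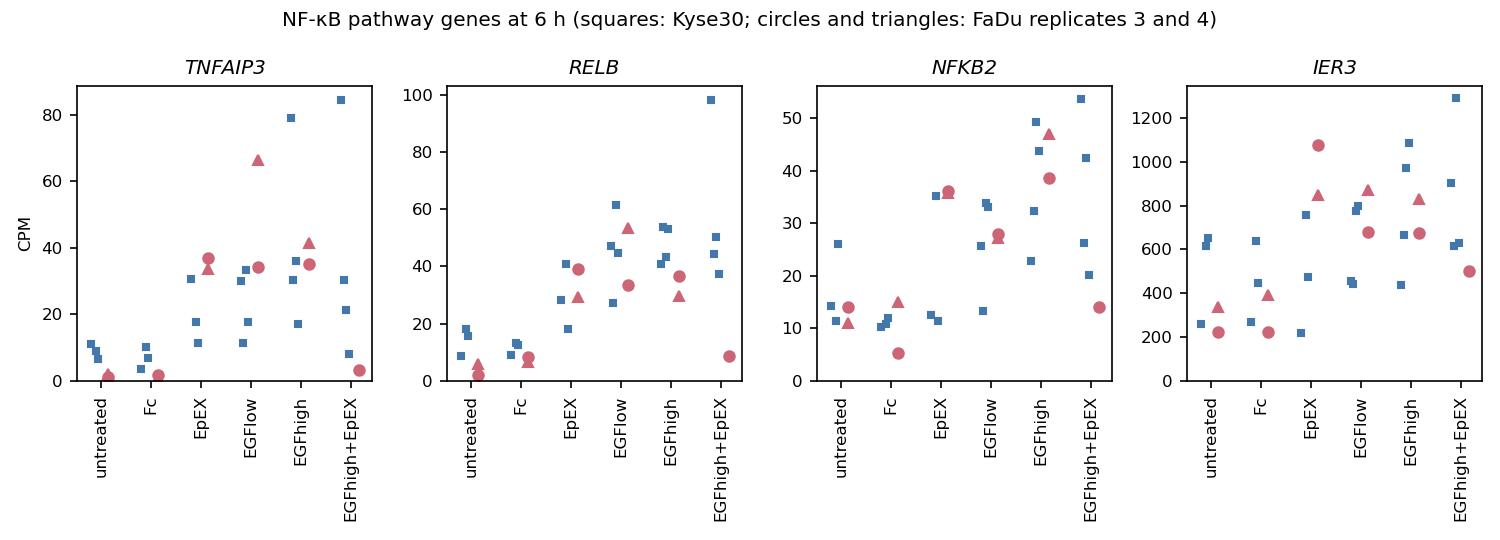
CPM (vertical axis, from 0, own scale for each gene) of 4 NF-κB pathway genes at 6 h in Kyse30 (squares) and FaDu (circles and triangles, replicates 3 and 4) by treatment. TNFAIP3 and RELB are higher with EGFlow, EGFhigh, or EpEX than in FaDu controls, and the FaDu library with EGFhigh + EpEX lies near the controls.

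In the other lists few genes were called. Of 25 other cytokines and chemokines, 15 were tested in FaDu and 10 in Kyse30. IL11, another cytokine that signals through gp130, was the 1 called in FaDu at 6 h after EGFhigh, where 3.06% of all genes were called (log2 fold change 4.58, SE 0.91, edgeR adjusted p = 0.00753). It had 0 and 1.92 CPM in untreated cells and 8.35 and 38.0 CPM after EGFhigh, without overlap. In Kyse30 after EGFhigh 0 of the 10 were called at 6 h and 1 at 72 h, where 2.55% and 6.20% of all genes were. This was IL1RN, the gene of the antagonist IL-1RA, with 8.31, 10.7, and 5.35 CPM in untreated cells and 151.1, 80.8, and 54.0 CPM after EGFhigh at 72 h (log2 fold change 3.497, SE 0.61, edgeR adjusted p = 0.000177). With EGFhigh + EpEX at 72 h IL1RN had 27.2, 7.47, and 7.96 CPM. IL1RN stood above IL1A and IL1B in each of the 3 EGFhigh libraries and also in each of the 3 untreated libraries at 72 h.

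Of 14 receptor genes, 7 were tested in FaDu and 6 in Kyse30. In FaDu at 6 h the median log2 fold change of the 7 was 1.354 after EGFlow, 1.006 after EGFhigh, and 1.237 after EpEX. The NF-κB list had 1.074, 1.031, and 0.845 there, so that such a median was not particular to it. The other cytokines and chemokines had 0.296, 0.386, and -0.106. After EGFhigh 0 were called in FaDu at 6 h, 0 in Kyse30 at 6 h, and 1 in Kyse30 at 72 h (3.06%, 2.55%, and 6.20% of all genes), IL6R, which was higher by a log2 fold change of 1.34 (SE 0.28, edgeR adjusted p = 0.00199). In the FaDu libraries labelled EpEX at 6 h, where 3.50% of all genes were called, 1 of the 7 was, IL1RAP, the partner chain of the IL-1 receptor, a gene picked out once its values were known. It had 3.95 and 3.72 CPM with Fc and 14.2 and 19.1 CPM with EpEX (log2 fold change 2.14, edgeR adjusted p = 0.0390). Of 8 genes for proteins that bind or degrade AU-rich mRNAs, all 8 were tested and 0 were called after EGFhigh in FaDu at 6 h or in Kyse30 at 6 or 72 h. The list medians were 0.34, 0.33, and -0.25. With EGFhigh + EpEX against Fc at 6 h in Kyse30, 2 of the 8 were called as higher and 0 as lower. In that comparison 1 of the 10 other cytokines and chemokines tested was also called as higher, where 4.52% of all genes were called.

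IL1A was the sole member with a mean of at least 5 CPM in Kyse30 (5.97 CPM). Over the 13 Kyse30 conditions, and among 10227 genes at this level, the mean log2 CPM of TAB3 (Pearson r = 0.922), KDELR3 (r = 0.918), and MAU2 (r = 0.898) followed that of IL1A most closely. These correlations are over condition means that share a cell line and a fit, and they describe the likeness of the profiles only.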

How the data were processed

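RNA of 84 samples was sequenced as 3′ libraries (QuantSeq), and the authors deposited raw counts of reads per gene from HTSeq, one file per library. Alignment was with STAR to GRCh38 (hg38) per the submitters' processing notes. The annotation release, strand setting, and use of molecular identifiers are not given in the sources used here, so that strand and PCR copies could move low counts in ways not tested. The rows that name no gene (reads outside genes, ambiguous, or not uniquely aligned) held 33.7% to 60.3% of the reads listed in the libraries compared and were left out.

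Gene symbols and coordinates were from GENCODE release 29 (58275 of 58395 identifiers). Libraries were grouped by their labels. The 21 FaDu libraries of replicates 1 and 2 entered only the alternatives and the closing section. Genes passing filterByExpr by group (minimum count 10, minimum total 15) were tested with edgeR 4.0.16 in R 4.3.3 (TMM, quasi-likelihood F test, Benjamini-Hochberg) in 1 fit for Kyse30 (15350 genes), FaDu (16022), and both (19634). CPM used the TMM factors of the joint fit. As the labels name no separate cultures, p-values measure the spread between these samples, which may be technical. Alternatives were DESeq2 1.42.0, RLE factors, the replicate block, no filter, a filter at 5 CPM on average, fits of the compared groups alone, untreated and Fc together, all FaDu libraries, and each library left out. The edgeR test of EGFhigh at 6 h was tried on simulated counts in which 200 genes of at least 5 CPM were changed. It recovered 96% (Kyse30) and 95% (FaDu) of log2 fold changes of 2, and 47% and 43% of those of 1. Members below 5 CPM were not covered by it.

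All 10 members were named throughout. From the pathway lists, genes called after EGFhigh (Kyse30 at 6 or 72 h, FaDu at 6 h) were named, at most 4 per list and comparison with the largest change; IL1RAP was added after its values were seen. Members and lists were chosen with earlier results of these data known.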

Additional observations from a re-analysis of the deposited data

Results flagged for a closer look

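Among 20 groups of 4 Kyse30 libraries and members tested, 4 held a library that stood far from the other 3, where chance flags about 1 in 20 groups of normally distributed values, which these low and skewed levels are not. CXCL8 was at 3.30 CPM in EGFhigh replicate 3 at 6 h, with the others at 0.177 to 0.475 CPM. IL1A was at 10.9 CPM in EGFlow replicate 4 at 6 h, with the others at 0.234 to 1.85 CPM. LIF was at 14.8 CPM in EGFhigh replicate 1 at 6 h (others 0.475 to 2.92 CPM, barely past the limit) and at 7.72 CPM in EGFlow replicate 3 at 6 h (others 0.234 to 1.34 CPM). The 4 values came from 4 different libraries, and the cause was not tested.

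The 21 FaDu libraries of replicates 1 and 2, which the comparisons did not use, held members above every untreated FaDu library and above every library of replicates 3 and 4, in plain CPM of total counts. In EpEX replicate 1 at 72 h CXCL1 was at 64.6 CPM (343 counts), CXCL3 at 72.4 CPM (384 counts), and CSF2 at 0.942 CPM (5 counts). The highest untreated FaDu libraries had 12.1 CPM of CXCL1, 2.04 CPM of CXCL3, and 0 CPM of CSF2. In Fc replicate 2 at 6 h IL1A was at 79.6 CPM (1713 counts) and CXCL2 at 5.81 CPM (125 counts), where the highest untreated libraries had 30.7 and 1.21 CPM. The next highest of the 21 libraries had 60.6 CPM of CXCL1, 22.6 CPM of CXCL3, 0.0576 CPM of CSF2, 65.6 CPM of IL1A, and 4.82 CPM of CXCL2, and the medians were 1.62, 0.455, 0, 1.14, and 0 CPM. Other members were low in the 21 libraries, with medians of 0.663 CPM for CXCL8, 1.38 for IL1B, and 0.238 for LIF. In replicates 3 and 4, scaled for composition, they were 9.89, 13.1, and 4.56 CPM. At 6 h in replicates 1 and 2, CXCL8 had 1.07 and 0.193 CPM untreated and 0.235 and 0.655 CPM after EGFhigh. IL1B had 6.43 and 0.771 CPM against 1.17 and 0.291 CPM, and LIF 2.14 and 0.578 CPM against 0.235 and 0 CPM. The rise of replicates 3 and 4 was thus not seen there. The cause of these levels was not tested.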

How the results depend on the processing

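The count of members called was 0 in all 17 Kyse30 comparisons under all 228 alternative settings, libraries left out one at a time included (range 0 to 0). Most members were low in Kyse30 under every setting, so that this does not show that they did not respond. In FaDu with EGFlow at 6 h the count of 0 became 4 without a filter on low counts, 2 with the replicate block, and 2 with only the groups compared, and stayed at 0 to 0 with single libraries left out. With EGFhigh at 6 h it became 2 by DESeq2, 3 without a filter, 2 with the block, 1 with only the groups compared, and 0 to 1 with single libraries left out. With EpEX at 6 h the count of 1 became 3 without a filter, 2 with the block, 0 with a mean of at least 5 CPM, 0 with only the groups compared, 0 with all FaDu libraries, and 0 to 1 with single libraries left out. With EGFhigh + EpEX at 72 h it became 1 without a filter. Between the lines at 6 h the count of 2 became 1 with a mean of at least 5 CPM, which drops CXCL1, and 1 to 2 with single libraries left out, and was 2 with the block. With all FaDu libraries the EpEX value at 6 h reversed for CXCL1 (-1.91 in place of 1.60) and IL1A (-0.38 in place of 3.40). The cause of these shifts was not tested. Over its alternatives the adjusted p of IL1A with EpEX ran from 1.2e-11 to 1 and that of CXCL8 with EGFhigh from 1.05e-06 to 0.907. Left out were the single-library repeats of the interaction between lines, which were not run.

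The number of all genes called moved more than that of the members. In FaDu at 6 h it ran over the alternatives from 0 to 799 for EGFlow (553 in the report's fit), 0 to 719 for EGFhigh (491), and 0 to 785 for EpEX (560), the 0 being with all FaDu libraries. For EGFhigh + EpEX in FaDu at 72 h it ran from 0 to 316 (131), between the lines from 2585 to 4835 (4400), and for the interaction from 12 to 70 (12). In Kyse30 it ran from 20 to 776 for EGFlow at 6 h (230), 113 to 1105 for EGFhigh at 6 h (391), 0 to 106 for EpEX at 6 h (4), 209 to 1112 for EGFhigh + EpEX at 6 h (694), and 475 to 1628 for EGFhigh at 72 h (951). It ran there from 241 to 824 for the dose (573) and 187 to 846 for added EpEX (550) at 72 h, 72 to 479 for untreated cells between 6 and 72 h (238), 86 to 401 for the change in the EGFhigh response (155), and 0 to at most 13 for the 8 comparisons without a call.

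The replicate numbers were not taken as pairs. Libraries sharing a number had a mean correlation of their deviations of 0.1237 in Kyse30 and 0.1605 in FaDu, with 123 of 217 and 20 of 42 values over 0.1. With the block, edgeR called CXCL8 and IL1B for EGFlow and EGFhigh, and IL1A and IL1B for EpEX.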
